A study of Mus musculus with 11 samples.

Results

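The genes described here encode the cytosolic factors that start and extend protein chains on the ribosome. They were taken by symbol as every gene that begins with Eif1 to Eif6, Eef1 or Eef2, leaving out the Eif2ak kinases and the Y-linked Eif2s3y. The rule gave 61 of the 23284 genes in the files. Of these, 57 carry the symbol of a factor or of a direct regulator and are called factors here. They include Eef1e1, whose product is not an elongation factor. The other 4 (Eif2c1, Eif2c2, Eif2c3 and Eif2c4) are Argonaute genes under an older symbol, now Ago1 to Ago4. Argonautes act in small RNA silencing and not as initiation factors. The tumors were mouse small cell lung cancers, a neuroendocrine carcinoma, and their poly(A) RNA was sequenced. All 11 tumors shared 1 genotype, Rb;p53, TRE-MYCN and LSL-RTTA, in which MYCN is driven by a promoter that a doxycycline-dependent transactivator switches on, and that transactivator lies behind a stop cassette that Cre removes (the source of Cre is not given in the sources used here). The ONDOX group held 7 tumors grown with doxycycline, and the OFFDOX group held 4 tumors whose feed had contained no doxycycline for 7 days. Doxycycline and MYCN changed together, so their effects cannot be told apart. The labels do not say that the tumors came from separate mice, and p-values therefore measure the spread between these tumors.

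In initiation, eIF2 brings the initiator tRNA to the small ribosomal subunit, eIF1, eIF1A, eIF3 and eIF5 assemble around it, and the eIF4 factors bind the 5′ cap and unwind the leader of the mRNA. eIF2B recharges eIF2 with GTP, and phosphorylation of eIF2 blocks that step. In elongation, eEF1A brings each charged tRNA to the ribosome, the eEF1B subunits recharge eEF1A, and eEF2 moves the ribosome forward one codon. MYC family proteins are known for raising the RNA of genes for ribosome production and translation in many tissues.

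Gene reads ranged from 10324089 to 13123838 in ONDOX tumors and from 8951733 to 12190957 in OFFDOX tumors. Mycn had 36.5 to 171 CPM (read counts scaled to a common library size with TMM factors) in ONDOX tumors and 5.62 to 15.6 CPM in OFFDOX tumors, and each ONDOX tumor was above each OFFDOX tumor, although reads of the transgene and of mouse Mycn were not separated. Myc was called lower in ONDOX tumors, with 2.26 to 5.77 CPM against 7.32 to 11.3 CPM in OFFDOX tumors. All 12 neuroendocrine markers were measured, and their summed level was 2291 to 3843 CPM in ONDOX tumors and 1866 to 8629 CPM in OFFDOX tumors. Of the 12, 1 was called higher in ONDOX tumors (Uchl1) and 2 lower (Chgb and Scg2). Other tissue was present in unequal amounts. The 12 lung epithelium markers summed to 106 to 4017 CPM in ONDOX tumors and to 178 to 38975 CPM in OFFDOX tumors, with 3 called lower in ONDOX tumors and 0 higher. At the low end most of the sum was Lyz2 alone, with 83.2 CPM in ONDOX tumor 1 and 140 CPM in OFFDOX tumor 2. The 12 muscle markers, 9 of them tested, summed to 11.6 to 307 CPM in ONDOX tumors and to 14.5 to 571 CPM in OFFDOX tumors. The 8 leukocyte markers, 7 of them tested, summed to 53.4 to 235 CPM in ONDOX tumors and to 92.9 to 1388 CPM in OFFDOX tumors. Of the 7, 4 were called lower in ONDOX tumors, Ptprc, Csf1r and Lyz1 included. At the high end much of the sum was Lyz1 alone, with 113 CPM in ONDOX tumor 5 and 917 CPM in OFFDOX tumor 1. The 4 endothelium markers summed to 40.8 to 129 CPM in ONDOX tumors and to 47.9 to 594 CPM in OFFDOX tumors, with 2 called lower. The part of these cells in the differences below was not tested, beyond the fits with a lung or a muscle score. OFFDOX tumor 2, with the most muscle RNA, was the only OFFDOX tumor with Sftpc, a surfactant gene, under 100 CPM. Reads aligned to several places, which count for no gene, made up 13.8% to 20.9% of the records in ONDOX tumors and 9.15% to 11.9% in OFFDOX tumors. Several factors named below have processed pseudogenes, so their levels are uncertain to that extent, and the part of these reads in the differences was not tested.

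Most translation factor genes were higher in ONDOX tumors. Of the 59 genes of the set with enough reads for the test, Argonautes included, 38 rose, 0 fell and 21 did not pass (edgeR quasi-likelihood test, Benjamini-Hochberg adjusted p below 0.05 over all 15237 genes tested). That is 64.4% of the 59, and 69.1% of the 55 that are not Argonautes, where 16% of all tested genes were called higher and 29.4% were called in either direction. At an unadjusted p below 0.05, 44 of the 59 were higher and 1 lower, against 22.0% and 20.9% of all tested genes. At the adjusted threshold edgeR called 13.4% of all genes lower. DESeq2 and limma voom each called 1 gene of the set lower, Eif2c4, where DESeq2 called 19.5% of all genes lower and limma voom 12%. The median log2 fold change was 0.85 over the 59 and 0.00 over all tested genes. The log2 fold change was above 0 for 57 of the 59. The rise was at least 2-fold for 26 of the 38. Every ONDOX tumor lay above every OFFDOX tumor for 27 of the 59, with 0 the other way round, and 11.4% of all tested genes were apart in that direction. All 59 would have passed the filter on low counts in either group alone. The remaining 2 were Eif3j, with 0 reads in every tumor, and Eif4e1b, which had too few reads to test. In bulk tumors, fewer cells of a type and less RNA per cell cannot be told apart.

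**Figure D1:**
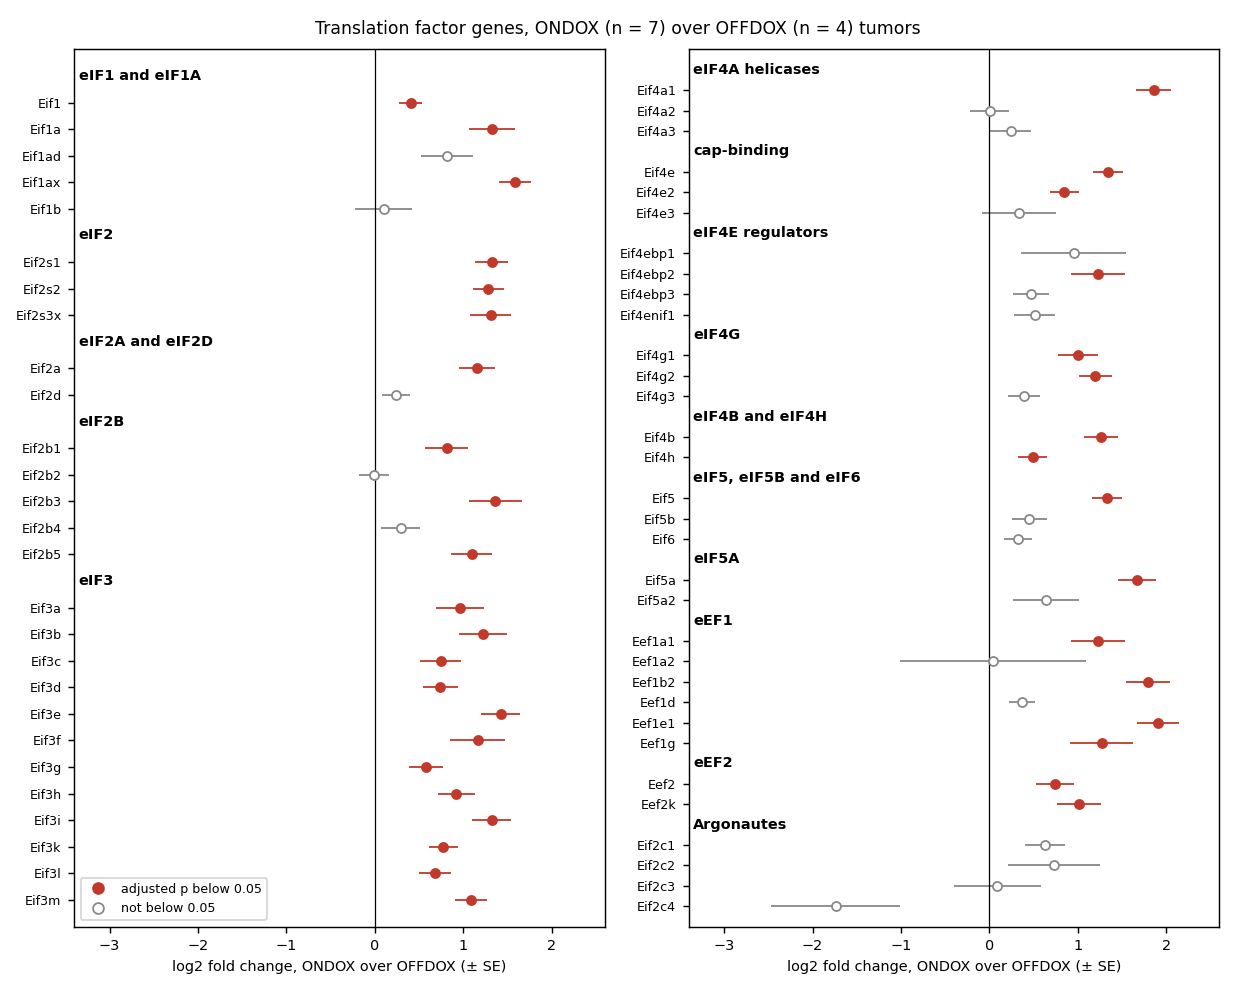
Log2 fold change of the 59 tested genes of the set, ONDOX (n = 7) over OFFDOX (n = 4) tumors, grouped by complex. Bars are ± 1 standard error from the edgeR fit. The 38 filled points passed an adjusted p of 0.05 and all lie right of 0, and the 4 Argonaute genes at the bottom right are open.

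Not every call was kept under other fits. Leaving out each tumor in turn, 27 of the 38 stayed called every time. The 11 that did not were Eef1g, Eef2, Eif1, Eif2b1, Eif3a, Eif3c, Eif3d, Eif3f, Eif3g, Eif3l and Eif4h. With the mean level of the lung markers as a covariate, 20 of the 38 stayed called and Eif5b was added, giving 21 factors where 7.67% of all genes were called higher. The 18 that lost the call kept a positive log2 fold change, between 0.34 and 1.17, with a median of 0.65 against 0.86 without the covariate, and it was smaller for 16 of them and not for 2 (Eif1 and Eif3f). The median over the 59 was 0.74 with the covariate. With the mean level of the muscle markers as a covariate there were also 21, where 10.5% of all genes were called higher. With library totals in place of TMM factors, 29 stayed called where 8.67% of all genes were called higher, and this scaling moved the median of all genes by -0.31 (log2). Among the 5 lung-poor ONDOX tumors (Sftpc under 100 CPM) and the 1 lung-poor OFFDOX tumor, the log2 fold change was above 0 for 47 of the 59. Its median there was 0.78, against 0.04 over all genes. Among the 2 ONDOX and 3 OFFDOX lung-containing tumors, the log2 fold change was above 0 for 55 of the 59. Its median there was 0.75, against -0.06 over all genes. In the lung-containing tumors 0 of the 59 (0% of all genes) passed adjustment (edgeR). At an unadjusted p below 0.05, in either direction, there were 31 of the 59 and 3899 of all 15690 genes. All 38 were positive in both subsets, but they had been called from these same tumors, so their sign is no separate support. The lone OFFDOX tumor of the lung-poor fit is assumed to vary like the ONDOX tumors. The 20 genes called in every fit that left out a tumor, with the lung covariate and with library totals were Eef1b2, Eef1e1, Eif1a, Eif1ax, Eif2a, Eif2b3, Eif2b5, Eif2s1, Eif2s2, Eif2s3x, Eif3e, Eif3i, Eif3m, Eif4a1, Eif4b, Eif4e, Eif4e2, Eif4g2, Eif5 and Eif5a.

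As a share of all gene reads, the 61 genes took 2.29% to 3.18% (median 2.67%) in ONDOX tumors, against 1.79%, 1.55%, 1.69% and 1.58% in OFFDOX tumors 1 to 4. The lowest ONDOX tumor was above the highest OFFDOX tumor. Without the Argonautes, the 49 eIF genes took 1.26% to 1.59% (median 1.42%) in ONDOX tumors, against 0.870%, 0.915%, 0.921% and 0.862% in OFFDOX tumors, again without overlap. The 8 Eef genes, Eef1e1 included, took 0.837% to 1.75% (median 1.26%) in ONDOX tumors, against 0.902%, 0.586%, 0.735% and 0.693% in OFFDOX tumors. Here OFFDOX tumor 1 reached into the ONDOX range. Eef1a1 alone took 0.467% to 1.18% (median 0.795%) in ONDOX tumors, against 0.605%, 0.268%, 0.430% and 0.432% in OFFDOX tumors. Shares are not affected by the choice of scaling factors, and long transcripts give more reads than short ones at the same number of molecules.

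**Figure D2:**
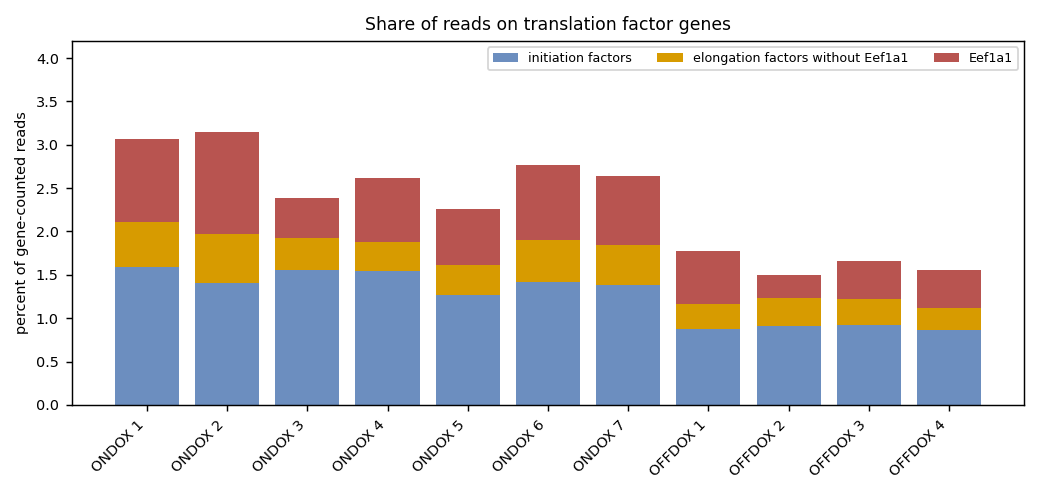
Share of gene reads (percent) taken by the 57 factor genes without the Argonautes in each ONDOX (left) and OFFDOX (right) tumor. The 49 eIF genes are at the bottom of each bar, the Eef genes other than Eef1a1 above them, and Eef1a1 on top. The bottom segment is 1.26% to 1.59% in ONDOX tumors and 0.862% to 0.921% in OFFDOX tumors.

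Per kilobase of transcript, Eef1a1 was the most abundant factor in both groups, at 4938 CPM per kb on average in ONDOX tumors and 2113 in OFFDOX tumors. Eef2 followed in both, at 991 CPM per kb in ONDOX tumors and 592 in OFFDOX tumors. In ONDOX tumors Eif4a1 (910 CPM per kb) and Eif5a (787) came next, with Eif1 (416) and Eef1b2 (415) after them. In OFFDOX tumors Eif1 (314 CPM per kb) stood above Eif4a1 (251) and Eif5a (248), and Eef1b2 was at 120. The lowest tested gene of the set was Eif2c3, at 0.872 CPM per kb in ONDOX tumors and 0.821 in OFFDOX tumors.

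Of the 5 genes with an Eif1 symbol, 3 rose. Eif1ad did not pass, with a log2 fold change of 0.82 and overlapping groups (adjusted p = 0.0519, edgeR). Eif1ax encodes the X-linked copy of eIF1A, which helps the small subunit scan the mRNA. It had 134 to 205 CPM (median 185) in ONDOX tumors, against 63.5, 55.1, 68.8 and 44.1 CPM in OFFDOX tumors, and its log2 fold change was 1.59 ± 0.18 (± SE here and below, adjusted p = 0.000399). All ONDOX tumors were above all OFFDOX tumors. Eif1a, another eIF1A gene, differed by 1.32 (log2) without overlap. Eif1, which keeps initiation from starting at wrong codons, had 497 to 592 CPM (median 554) in ONDOX tumors, against 466, 372, 362 and 463 CPM in OFFDOX tumors. Its groups did not overlap, but its log2 fold change was only 0.41 ± 0.13 (adjusted p = 0.0378), and that call was lost in 8 of the 11 fits that left out a tumor. Eif1b, a close copy of Eif1, had 31.4 to 107 CPM (median 91.9) in ONDOX tumors, against 53.4, 68.1, 71.4 and 98.9 CPM in OFFDOX tumors, and the groups overlapped throughout (log2 fold change 0.10 ± 0.32, adjusted p = 0.843).

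The 3 genes of eIF2 rose by nearly the same factor, 2.44-fold to 2.50-fold, and none of them overlapped between the groups. Eif2s1 encodes the subunit whose phosphorylation shuts down initiation under stress, and Eif2s3x the subunit that holds GTP and the tRNA. Eif2s2 had 389 to 502 CPM (median 424) in ONDOX tumors, against 250, 137, 157 and 175 CPM in OFFDOX tumors (log2 fold change 1.28 ± 0.18, adjusted p = 0.000852). OFFDOX tumor 1 was the highest of its group but still under every ONDOX tumor. Eif2s3x had 304 to 603 CPM (median 563) in ONDOX tumors, against 235, 220, 240 and 140 CPM in OFFDOX tumors (log2 fold change 1.31 ± 0.23, adjusted p = 0.00239). Its OFFDOX values lay close together in tumors 1 to 3 and lower in tumor 4. Within a tumor, the log2 ratio of Eif2s1 to Eif2s2 averaged -1.41 ± 0.22 in ONDOX tumors and -1.41 ± 0.48 in OFFDOX tumors (SD, n = 7 and 4), a difference of 0.00 (two-sided exact permutation p adjusted over 19 ratios = 0.979).

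eIF2A and eIF2D, which can bring tRNA to the ribosome without eIF2, came apart. Eif2a had 101 to 191 CPM (median 127) in ONDOX tumors, against 76.4, 61.6, 47.6 and 62.8 CPM in OFFDOX tumors (log2 fold change 1.16 ± 0.21, adjusted p = 0.00262). No OFFDOX tumor reached the ONDOX range. Eif2d had 34.7 to 52.5 CPM (median 41.7) in ONDOX tumors, against 38.6, 41.0, 33.1 and 34.3 CPM in OFFDOX tumors, with overlapping groups (log2 fold change 0.24 ± 0.16, adjusted p = 0.285). The difference between the genes was itself not tested.

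Of the 5 genes of eIF2B, the 5-subunit exchange factor that recharges eIF2, 3 rose and 2 did not pass. Differences between these genes were not tested. Eif2b5 encodes the catalytic subunit. It had 81.8 to 189 CPM (median 105) in ONDOX tumors, against 52.3, 62.7, 59.6 and 54.8 CPM in OFFDOX tumors (log2 fold change 1.09 ± 0.23, adjusted p = 0.00592). The OFFDOX tumors were tightly grouped below all ONDOX tumors. Eif2b3, its partner in the catalytic pair, rose by 1.36 (log2) without overlap, and Eif2b1, of the regulatory core, by 0.81 with overlap. Eif2b2, also of the regulatory core, had 30.5 to 54.4 CPM (median 48.0) in ONDOX tumors, against 45.7, 48.7, 40.6 and 46.9 CPM in OFFDOX tumors. All 4 OFFDOX values fell inside the ONDOX range, and the log2 fold change was -0.01 ± 0.17 (adjusted p = 0.971). Eif2b4, the third gene of that core, differed by 0.29 ± 0.22 (adjusted p = 0.334).

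All 12 tested genes of eIF3, the large scaffold that binds the small subunit, rose, by 1.49-fold (Eif3g) to 2.68-fold (Eif3e), with a median log2 fold change of 0.94. Eif3e had 248 to 457 CPM (median 343) in ONDOX tumors, against 190, 96.9, 112 and 119 CPM in OFFDOX tumors (log2 fold change 1.42 ± 0.22, adjusted p = 0.00147). The OFFDOX values were all lower, and tumor 1 was the nearest. Eif3g had 140 to 203 CPM (median 168) in ONDOX tumors, against 81.4, 158, 92.9 and 119 CPM in OFFDOX tumors (log2 fold change 0.58 ± 0.19, adjusted p = 0.0418). Here OFFDOX tumor 2 fell inside the ONDOX range. Groups were apart for 6 of the 12 (Eif3b, Eif3e, Eif3h, Eif3i, Eif3k and Eif3m). The other 6 (Eif3a, Eif3c, Eif3d, Eif3f, Eif3g and Eif3l) each lost the call when certain tumors were left out. With the lung covariate, Eif3e, Eif3i and Eif3m alone kept it, and all 12 log2 fold changes stayed positive, between 0.34 for Eif3g and 1.48 for Eif3e. Mean levels per length ran from 92.5 to 321 CPM per kb in ONDOX tumors and from 41.4 to 170 CPM per kb in OFFDOX tumors.

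**Figure D3:**
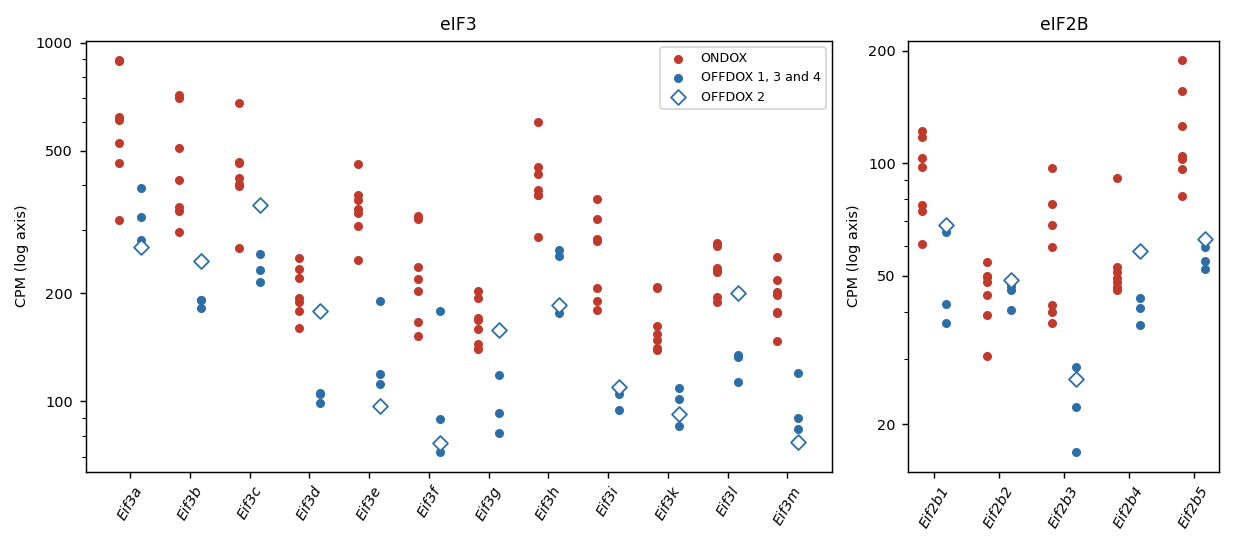
CPM of the eIF3 and eIF2B genes in each ONDOX (left of each pair, n = 7) and OFFDOX (right, n = 4) tumor on a log axis, with OFFDOX tumor 2 as an open diamond. The diamond lies among the ONDOX points for Eif3c, Eif3d, Eif3g, Eif3l, Eif2b1, Eif2b2 and Eif2b4, and below all of them for Eif3b, Eif3e, Eif3i, Eif3k, Eif3m, Eif2b3 and Eif2b5.

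Within the eIF4A helicases, 1 of 3 genes rose. Eif4a1 and Eif4a2 encode near-identical RNA helicases of the cap complex, and Eif4a3 encodes a member of the exon junction complex that marks spliced mRNA. Eif4a1 had 1123 to 2301 CPM (median 1619) in ONDOX tumors, against 452, 461, 466 and 404 CPM in OFFDOX tumors, a log2 fold change of 1.86 ± 0.20 (3.62-fold, adjusted p = 0.000346). The OFFDOX tumors were almost equal, and the lowest ONDOX tumor was far above them. Eif4a2 had 335 to 678 CPM (median 515) in ONDOX tumors, against 573, 371, 436 and 602 CPM in OFFDOX tumors, and the groups covered the same range (log2 fold change 0.00 ± 0.22, adjusted p = 0.994). With library totals its log2 fold change was -0.31. Eif4a3 had 116 to 197 CPM (median 137) in ONDOX tumors, against 81.9, 191, 107 and 110 CPM in OFFDOX tumors, where OFFDOX tumor 2 stood apart from the other three (log2 fold change 0.24 ± 0.23, adjusted p = 0.463).

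The balance between these helicases was therefore compared within each tumor, where depth and scaling cancel. The ratio of Eif4a1 to Eif4a2 reads was 2.25 to 6.55 (median 2.82) in ONDOX tumors, against 0.790, 1.24, 1.07 and 0.671 in OFFDOX tumors, a 3.57-fold difference. All ONDOX ratios were above all OFFDOX ratios. The two-sided exact permutation p was 0.00303, the smallest that the 330 ways to choose 4 of 11 tumors allow, and 0.0144 after adjustment over 19 ratios. The ratio of Eif4a1 to Eif4a3 reads was 9.39 to 13.8 (median 11.7) in ONDOX tumors, against 5.52, 2.42, 4.35 and 3.67 in OFFDOX tumors (2.91-fold, exact permutation adjusted p = 0.0144), also without overlap.

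The promoter windows of Eif4a1 and Eif4a2 are shown here, and their part in the difference was not tested. They come from the RefSeq annotation of GRCm38.p6, on the strand of the gene, from 250 bases before to 50 after the start, and capitals mark the E-box CACGTG, the best known binding sequence of MYC family proteins. Eif4a1 (chr11:69672374-69672673, minus strand) holds 1 E-box, 189 bases before the start, and Eif4a2 (chr16:23107218-23107517, plus strand) holds none in this window. CACGTG stood in a window of 10 of the 31 called factors that had one, and of 11.3% of all tested genes that had one.
Eif4a1: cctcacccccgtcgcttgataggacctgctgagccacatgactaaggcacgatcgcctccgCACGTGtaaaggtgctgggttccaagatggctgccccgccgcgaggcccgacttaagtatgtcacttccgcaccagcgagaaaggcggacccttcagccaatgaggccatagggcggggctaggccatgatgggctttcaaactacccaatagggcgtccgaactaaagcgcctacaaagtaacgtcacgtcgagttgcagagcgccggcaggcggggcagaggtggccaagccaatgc
Eif4a2: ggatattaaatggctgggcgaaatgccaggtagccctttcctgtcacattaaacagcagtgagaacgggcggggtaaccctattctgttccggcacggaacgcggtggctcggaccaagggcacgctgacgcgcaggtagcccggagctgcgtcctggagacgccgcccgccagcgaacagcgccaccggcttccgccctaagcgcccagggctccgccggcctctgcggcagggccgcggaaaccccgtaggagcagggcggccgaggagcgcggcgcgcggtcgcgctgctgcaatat

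eIF4B and eIF4H, which stimulate the eIF4A helicase, both rose. Eif4b had 456 to 854 CPM (median 700) in ONDOX tumors, against 300, 363, 230 and 268 CPM in OFFDOX tumors (log2 fold change 1.26 ± 0.19, adjusted p = 0.0014), without overlap. Eif4h had 367 to 546 CPM (median 465) in ONDOX tumors, against 272, 425, 322 and 322 CPM in OFFDOX tumors (log2 fold change 0.49 ± 0.16, adjusted p = 0.0403). OFFDOX tumor 2 lay inside the ONDOX range for Eif4h. The ratio of Eif4b to Eif4h reads differed 1.70-fold (exact permutation adjusted p = 0.0230), a call that was lost in 8 of 11 comparisons with a tumor left out.

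**Figure D4:**
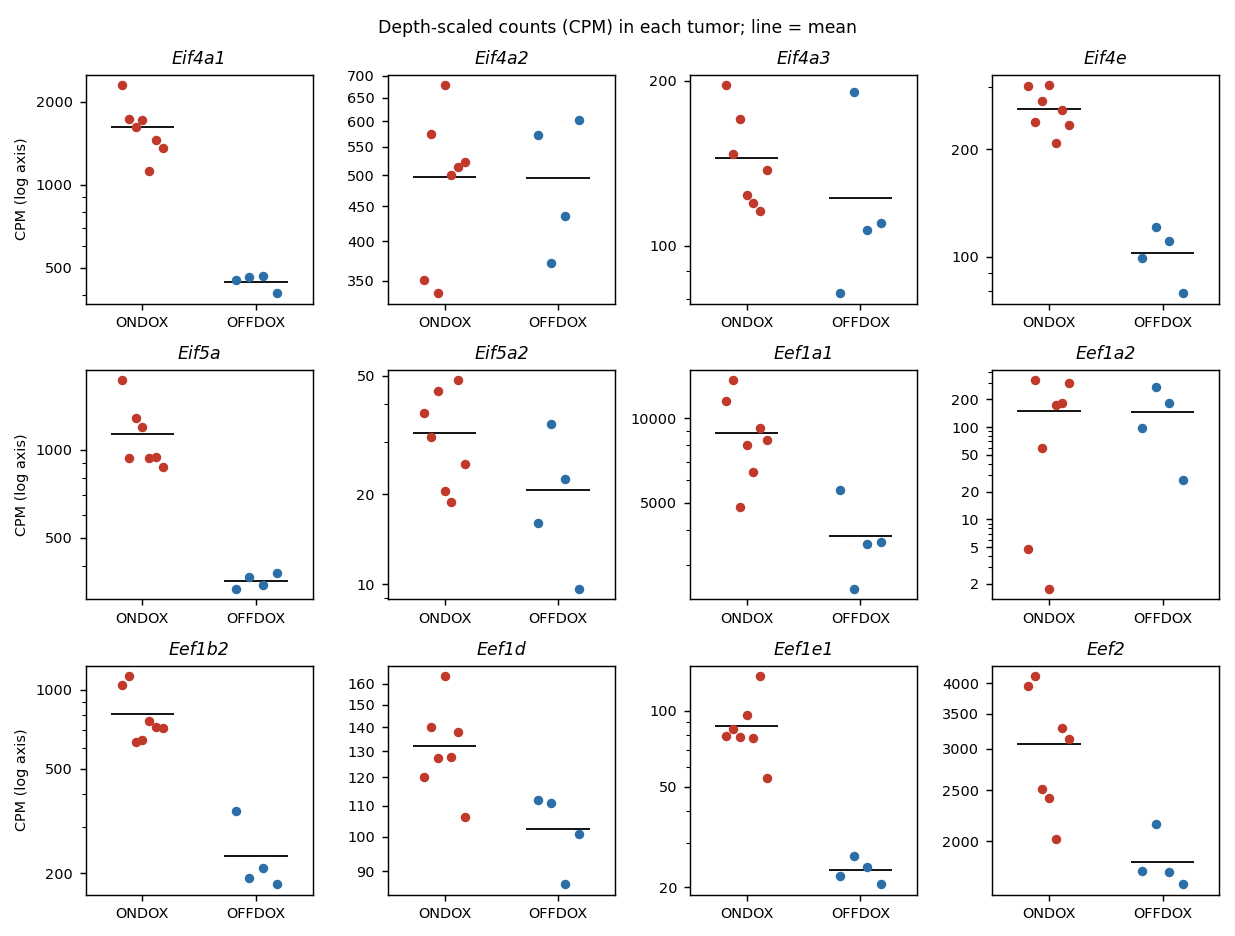
CPM per tumor of 12 factor genes on log axes, with ONDOX (n = 7) left of OFFDOX (n = 4) in each panel and group means as lines. Eif4a1, Eif5a, Eef1b2 and Eif4e separate the groups, while Eif4a2 and Eef1a2 do not.

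Of the cap-binding genes, Eif4e and Eif4e2 rose, and Eif4e3 did not pass. Eif4e encodes the protein that grips the 5′ cap and is a known growth-promoting factor in many cancers. It had 208 to 304 CPM (median 259) in ONDOX tumors, against 98.9, 121, 110 and 78.9 CPM in OFFDOX tumors (log2 fold change 1.34 ± 0.17, adjusted p = 0.000606). The lowest ONDOX tumor was well above the highest OFFDOX tumor. Eif4e2 encodes a cap-binding homolog that represses some mRNAs, and it rose 1.8-fold, also without overlap. The ratio of Eif4e to Eif4e2 reads was 2.17 to 2.76 (median 2.53) in ONDOX tumors, against 1.63, 1.67, 1.97 and 1.75 in OFFDOX tumors (1.41-fold, exact permutation adjusted p = 0.0144). Eif4e3, another homolog, had 39.8 to 197 CPM (median 87.6) in ONDOX tumors, against 76.4, 96.5, 88.4 and 56.7 CPM in OFFDOX tumors, all within the ONDOX range (log2 fold change 0.33 ± 0.42, adjusted p = 0.574). RefSeq lists more than 1 start for Eif4e, and the window shown (chr3:138527018-138527317, plus strand, GRCm38.p6) is the one with CACGTG, in capitals, 228 and 64 bases before the start.
Eif4e: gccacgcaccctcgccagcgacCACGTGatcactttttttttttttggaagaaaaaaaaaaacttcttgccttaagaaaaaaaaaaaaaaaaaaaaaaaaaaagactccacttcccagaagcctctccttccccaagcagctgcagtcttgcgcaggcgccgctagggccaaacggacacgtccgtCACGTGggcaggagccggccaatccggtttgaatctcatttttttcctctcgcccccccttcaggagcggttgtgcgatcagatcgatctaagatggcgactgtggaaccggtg

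The proteins that hold eIF4E back gave a mixed picture, with 1 of 4 called. Eif4ebp2, a 4E-binding protein that blocks eIF4E until mTOR phosphorylates it, had 35.5 to 92.1 CPM (median 81.7) in ONDOX tumors, against 22.1, 48.1, 35.7 and 20.3 CPM in OFFDOX tumors (log2 fold change 1.23 ± 0.30, adjusted p = 0.013). The lowest ONDOX tumor reached into the OFFDOX range. Eif4ebp1, of the same family, had 7.72 to 66.7 CPM (median 21.7) in ONDOX tumors, against 25.2, 9.0, 19.2 and 13.3 CPM in OFFDOX tumors (log2 fold change 0.95 ± 0.60, adjusted p = 0.247). ONDOX tumors 1, 3 and 4 were above all OFFDOX tumors, and the other 4 were not. The ratio of Eif4e to Eif4ebp2 did not pass (difference 0.09 on the log2 scale, exact permutation adjusted p = 0.748), nor did that of Eif4e to Eif4ebp1 (difference 0.70, adjusted p = 0.444). Eif4ebp3 (log2 fold change 0.47 ± 0.20, adjusted p = 0.097) and Eif4enif1 (0.51 ± 0.23, adjusted p = 0.11), which carries eIF4E into the nucleus, did not pass. Eif4ebp3 was still higher in every ONDOX tumor (15.3 to 22.3 CPM) than in any OFFDOX tumor (12.8 to 15.2 CPM).

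eIF4G bridges the cap and the ribosome, and 2 of its 3 genes rose. Eif4g2 encodes a form that lacks the eIF4E binding site and works without the cap. It had 1728 to 2451 CPM (median 2121) in ONDOX tumors, against 897, 1111, 989 and 645 CPM in OFFDOX tumors (log2 fold change 1.20 ± 0.18, adjusted p = 0.00139), without overlap. Eif4g1, the main scaffold, rose 2.01-fold without overlap. Eif4g3, a second cap-dependent scaffold, had 302 to 469 CPM (median 338) in ONDOX tumors, against 256, 358, 290 and 207 CPM in OFFDOX tumors, with OFFDOX tumor 2 among the ONDOX values (log2 fold change 0.39 ± 0.18, adjusted p = 0.126). The ratio of Eif4g1 to Eif4g3 differed by 0.59 on the log2 scale (exact permutation p = 0.0485) and did not pass after adjustment (0.148).

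Eif5, whose product makes eIF2 hydrolyse GTP once the start codon is found, had 414 to 576 CPM (median 518) in ONDOX tumors, against 268, 157, 198 and 203 CPM in OFFDOX tumors (log2 fold change 1.33 ± 0.17, adjusted p = 0.000619). The groups were far apart. The genes that act at subunit joining did not pass. Eif6, which keeps free large subunits from joining early, had 94.1 to 117 CPM (median 108) in ONDOX tumors, against 64.3, 109, 79.5 and 91.8 CPM in OFFDOX tumors, with OFFDOX tumor 2 among the ONDOX values (log2 fold change 0.32 ± 0.16, adjusted p = 0.14). Eif5b, the GTPase that joins the subunits, differed by 0.45 ± 0.19 (adjusted p = 0.0976) and was called with the lung covariate (0.0445) and in the fit without OFFDOX tumor 1 (0.0193).

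eIF5A, which helps ribosomes past difficult stretches and carries the amino acid hypusine, is made by a common and a rarer gene. Eif5a had 877 to 1730 CPM (median 946) in ONDOX tumors, against 334, 366, 345 and 379 CPM in OFFDOX tumors (log2 fold change 1.67 ± 0.21, 3.18-fold, adjusted p = 0.000619). The OFFDOX tumors were nearly equal, and every ONDOX tumor was above them. Eif5a2 had 18.8 to 48.1 CPM (median 31.0) in ONDOX tumors, against 16.1, 34.5, 22.5 and 9.65 CPM in OFFDOX tumors, with overlapping groups (log2 fold change 0.64 ± 0.37, adjusted p = 0.206). The within-tumor ratio of the pair differed by 0.92 on the log2 scale (exact permutation p = 0.0545, adjusted 0.148), so the difference between the genes did not pass. Their RefSeq windows (GRCm38.p6) are shown because E-boxes stand in both, in the gene that rose and in the one that was not called. Eif5a (chr11:69921337-69921636, minus strand, 1 of 6 listed starts) holds CACGTG, in capitals, 74 bases before the start, and Eif5a2 (chr3:28781027-28781326, plus strand) holds it 142 and 117 bases before.
Eif5a: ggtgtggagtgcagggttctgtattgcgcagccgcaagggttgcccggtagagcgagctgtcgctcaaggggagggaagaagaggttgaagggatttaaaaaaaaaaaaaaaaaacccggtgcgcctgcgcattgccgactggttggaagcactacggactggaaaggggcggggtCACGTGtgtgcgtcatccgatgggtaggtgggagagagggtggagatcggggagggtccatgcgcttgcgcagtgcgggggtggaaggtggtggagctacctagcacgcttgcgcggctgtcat
Eif5a2: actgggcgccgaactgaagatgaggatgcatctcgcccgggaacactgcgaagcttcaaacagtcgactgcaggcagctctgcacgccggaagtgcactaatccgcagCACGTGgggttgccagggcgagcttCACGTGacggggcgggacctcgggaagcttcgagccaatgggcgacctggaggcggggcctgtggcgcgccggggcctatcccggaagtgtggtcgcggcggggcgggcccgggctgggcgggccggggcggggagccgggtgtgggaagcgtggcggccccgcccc

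In elongation, 4 of the 6 genes with an Eef1 symbol rose, or 3 of 5 without Eef1e1, whose product is not an elongation factor. Eef1a1 encodes the usual carrier of charged tRNA. It had 4801 to 13657 CPM (median 8332) in ONDOX tumors, against 5538, 2456, 3541 and 3626 CPM in OFFDOX tumors (log2 fold change 1.22 ± 0.31, adjusted p = 0.0134). The groups overlapped through OFFDOX tumor 1, and with the lung covariate the log2 fold change was 1.07 at an adjusted p of 0.154. Eef1a2 encodes the form known from neurons and muscle. It had 1.76 to 321 CPM (median 174) in ONDOX tumors, against 97.7, 270, 184 and 26.6 CPM in OFFDOX tumors (log2 fold change 0.04 ± 1.05, adjusted p = 0.98). ONDOX tumors 1 and 4 held almost none, at 4.76 and 1.76 CPM, while the other 5 had 59.0 CPM or more. The ratio of Eef1a1 to Eef1a2 differed by 2.16 on the log2 scale but did not pass (exact permutation p = 0.230, adjusted 0.438).

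The exchange factors that recharge eEF1A moved unevenly. Eef1b2 had 634 to 1126 CPM (median 720) in ONDOX tumors, against 346, 192, 211 and 182 CPM in OFFDOX tumors (log2 fold change 1.79 ± 0.25, 3.46-fold, adjusted p = 0.000928), with the groups far apart. Eef1d, an alternative exchange subunit, had 106 to 164 CPM (median 128) in ONDOX tumors, against 112, 111, 86.4 and 101 CPM in OFFDOX tumors, with OFFDOX tumors 1 and 2 inside the ONDOX range (log2 fold change 0.36 ± 0.15, adjusted p = 0.0791). The ratio of Eef1b2 to Eef1d reads was 3.91 to 8.62 (median 5.94) in ONDOX tumors, against 3.08, 1.73, 2.44 and 1.8 in OFFDOX tumors, a 2.73-fold difference without overlap (exact permutation adjusted p = 0.0144). Eef1g, a structural subunit of the same complex, rose 2.41-fold with overlap (adjusted p = 0.0224). Eef1e1, named with the elongation factors but known as a scaffold of the complex of tRNA synthetases, had the largest rise of the 59, with 54.0 to 138 CPM (median 79.3) in ONDOX tumors, against 22.1, 26.5, 24.1 and 20.5 CPM in OFFDOX tumors (log2 fold change 1.90 ± 0.24, 3.74-fold, adjusted p = 0.000606). Its OFFDOX tumors were nearly equal and all below the ONDOX tumors.

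Both eEF2 genes rose. Eef2, the translocase, had 2018 to 4126 CPM (median 3132) in ONDOX tumors, against 1756, 2154, 1748 and 1654 CPM in OFFDOX tumors (log2 fold change 0.74 ± 0.21, adjusted p = 0.0238). OFFDOX tumor 2 was above the lowest ONDOX tumor. Eef2k, the kinase that switches eEF2 off, had 27.4 to 55.8 CPM (median 44.3) in ONDOX tumors, against 27.3, 23.0, 20.2 and 12.9 CPM in OFFDOX tumors (log2 fold change 1.01 ± 0.25, adjusted p = 0.0134). The groups were only just apart, since OFFDOX tumor 1 nearly reached the lowest ONDOX tumor. With the lung covariate the log2 fold change was 0.39 for Eef2 (adjusted p = 0.296) and 0.76 for Eef2k (adjusted p = 0.143). Their ratio differed by -0.32 on the log2 scale and did not pass (exact permutation adjusted p = 0.192).

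**Figure D5:**
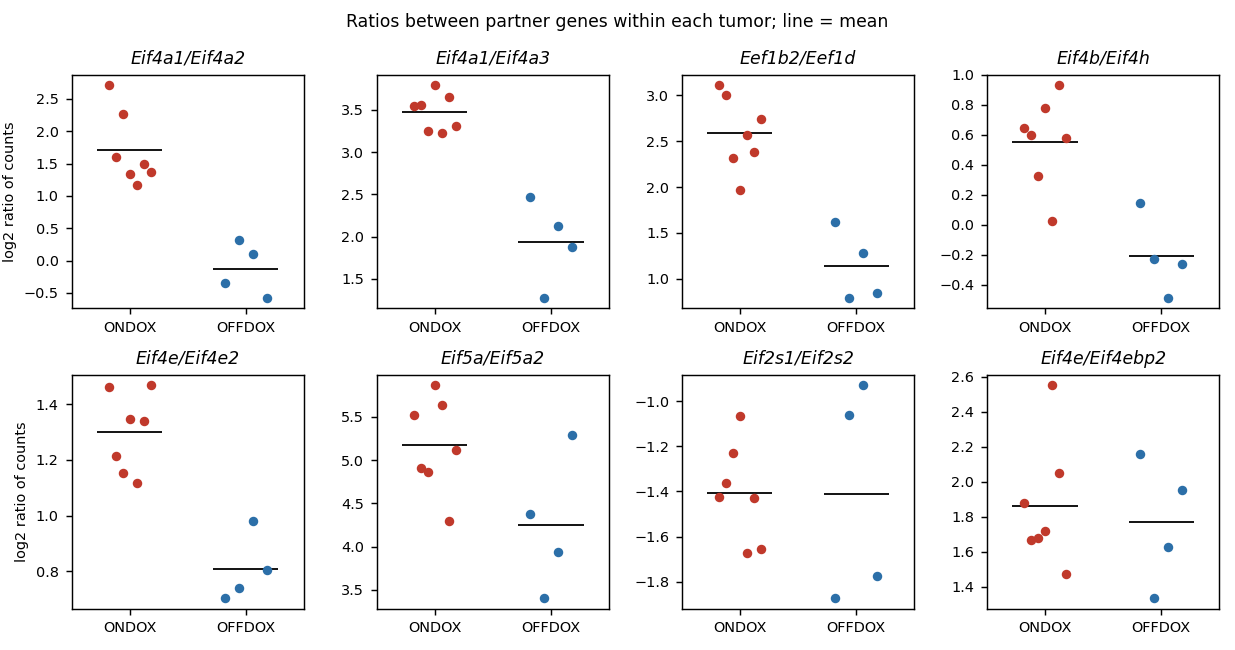
Within-tumor log2 ratios of partner genes in ONDOX (left, n = 7) and OFFDOX (right, n = 4) tumors, for 8 pairs, with group means as lines. Eif4a1 over Eif4a2, Eif4a1 over Eif4a3 and Eef1b2 over Eef1d are higher in every ONDOX tumor than in any OFFDOX tumor, and Eif2s1 over Eif2s2 and Eif4e over Eif4ebp2 overlap.

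Of the 19 within-tumor ratios between partner genes that could be formed, 5 passed, all higher in ONDOX tumors, and 14 did not. The 5 were Eif4a1 to Eif4a2, Eif4a1 to Eif4a3, Eef1b2 to Eef1d, Eif4e to Eif4e2 and Eif4b to Eif4h. All 5 rest on the difference of group means: with the difference of medians in the same permutation test, 0 passed, at adjusted p of 0.0576 for 4 of them and 0.0921 for Eif4a1 to Eif4a2. The lung markers varied between the tumors, and their part in these ratios was not tested.

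Of the 4 Argonaute genes 3 had a positive log2 fold change, and edgeR called 0 of the 4 (1 was higher and 1 lower at an unadjusted p below 0.05). Eif2c4 (Ago4) had 0.58 to 19.0 CPM (median 6.0) in ONDOX tumors, against 27.2, 41.5, 16.5 and 19.1 CPM in OFFDOX tumors. Of the 7 ONDOX tumors 5 were below all OFFDOX tumors and 2 were not, and the log2 fold change of -1.74 ± 0.73 had an adjusted p of 0.0907 with edgeR. For Eif2c4, DESeq2 gave an adjusted p of 0.0387 and limma voom 0.0215. Eif2c1 (Ago1) had 189 to 383 CPM (median 250) in ONDOX tumors, against 131, 181, 190 and 193 CPM in OFFDOX tumors (log2 fold change 0.63 ± 0.23, adjusted p = 0.0544), with 5 of the 7 ONDOX tumors above all OFFDOX tumors. It was called higher without ONDOX tumor 5 (0.0368) or without ONDOX tumor 6 (0.0428). Eif2c3 (Ago3) had 5.22 to 21.4 CPM (median 12.6) in ONDOX tumors, against 4.72, 26.2, 14.4 and 5.90 CPM in OFFDOX tumors, with wide overlap (log2 fold change 0.09 ± 0.49, adjusted p = 0.908). Eif2c2 (Ago2) differed by 0.73 ± 0.52 (adjusted p = 0.307), and without OFFDOX tumor 2 by 1.72 (adjusted p = 0.00957).

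Single tumors stood out within the groups. Among the 59 tested genes of the set, ONDOX tumor 5 was the lowest ONDOX tumor for 32, and ONDOX tumor 1 the highest for 23. OFFDOX tumor 2 was the highest OFFDOX tumor for 29 and the lowest for 12. Of the 12 called factors whose groups overlapped, OFFDOX tumor 2 was the highest OFFDOX tumor for 8 and OFFDOX tumor 1 for 3. OFFDOX tumor 2 had the most muscle RNA and ONDOX tumor 5 was 1 of the 2 ONDOX tumors with Sftpc of at least 100 CPM, and the part of these tissues in the spread was not tested.

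Other genes of translation also rose in part. Of 44 listed genes for release factors, poly(A)-binding proteins, eIF2 kinases and phosphatases, mTOR signalling and related proteins, all tested, 17 rose, 0 fell and 27 did not pass (edgeR), where 16% of all tested genes were called higher and 13.4% lower. Their median log2 fold change was 0.49. At an unadjusted p below 0.05, 0 of them were lower, and DESeq2 and limma voom also called 0 lower. Whether this list differs from the factors was not tested. Bzw2, whose product mimics eIF5, had 292 to 523 CPM (median 357) in ONDOX tumors, against 71.4, 74.4, 91.8 and 72.5 CPM in OFFDOX tumors (log2 fold change 2.27 ± 0.20, 4.83-fold, adjusted p = 0.000318). The related Bzw1 rose 2.39-fold (adjusted p = 0.000689). Gspt1, the release factor eRF3, had 268 to 440 CPM (median 337) in ONDOX tumors, against 132, 126, 130 and 126 CPM in OFFDOX tumors (log2 fold change 1.47 ± 0.16, adjusted p = 0.000343). Pabpc1, which binds the poly(A) tail and eIF4G, had 1048 to 1947 CPM (median 1516) in ONDOX tumors, against 668, 526, 425 and 563 CPM in OFFDOX tumors (log2 fold change 1.47 ± 0.20, adjusted p = 0.000772). None of these 4 overlapped between the groups. The eIF2 kinase genes Eif2ak1 to Eif2ak4, Mtor and Rptor did not pass. Of these, Eif2ak3 was still higher in every ONDOX tumor than in any OFFDOX tumor (log2 fold change 0.366, adjusted p = 0.0732). Rps6kb1, of mTOR signalling, rose without overlap (log2 fold change 1.18, adjusted p = 0.001), and Rps6kb2 did not pass. Ppp1r15b, of the eIF2 phosphatases, rose without overlap (log2 fold change 0.847, adjusted p = 0.0062), and Ppp1r15a did not pass.

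Across the set, Argonautes included, RefSeq promoter windows were found for 47 of the 61 genes, with 62 windows in all. CACGTG, which reads the same on both strands, stood in at least 1 window of 12 of the 47 (25.5%), against 8.09% of all 27025 genes in the table and 11.3% of the 10732 tested genes that had a window. Among called factors it stood in 10 of 31 (32.3%), against 15% of all 1816 genes called higher with a window, and among tested genes of the set that were not called in 2 of 15 (13.3%), against 10.5% of all tested genes not called higher. The related CACGCG, searched on both strands with no overlap with CACGTG, stood in 8 of 31 called factors (25.8%) and in 25.9% of all genes called higher. These are matches of letters and show no binding.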

How the data were processed

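Poly(A) RNA of 7 ONDOX and 4 OFFDOX tumors was sequenced, with groups and replicate numbers from the sample titles. The labels' protocols give TRIzol extraction, oligo-dT selection and NEBNext Ultra libraries. The submitters' processing notes name bcl2fastq 1.8.4, TopHat2 2.0.8b, HTSeq 0.6.1 and the build mm9. Since no strand setting is given in the sources used here, a gene cannot be told apart from an antisense partner. Each deposited file holds raw counts of reads for 23284 gene symbols, with no normalization by the authors, and 5 summary rows, which were left out of totals and tests. Records with no annotated gene were 14.8% to 21.5% of a tumor's total.

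Counts were tested with edgeR 4.0.16 in R 4.3.3: filterByExpr (minimum count 10, minimum total 15), TMM factors and the robust quasi-likelihood test, with Benjamini-Hochberg adjustment over 15237 genes and a threshold of 0.05. The biological coefficient of variation was 53.7%, so the spread between tumors set the precision more than depth did. CPM are scaled by the TMM factors. Log2 fold changes are ONDOX over OFFDOX. Standard errors were derived from each log2 fold change and its F statistic (size over the root of F). CPM per kb used the longest coding transcript of GENCODE M21. Within-tumor ratios used counts plus 0.5 and a two-sided exact permutation test of the difference of group means, adjusted over the ratios. Every pair of tumors within a group differed by more than counting noise (lowest chi-square per gene 51.0). The test was checked on simulated counts. Promoter windows were taken from RefSeq on GRCm38.p6, a later build than that of the counts, and no coordinates were converted.

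The members and lists were chosen with earlier results of these data known. Values per tumor are given, by rule, for the genes with the smallest and the largest p of each complex, for both genes of the 4 ratios with the largest difference, and for called genes with the smallest p among 44 other translation genes. Eif2c4 and Eif1, outside that rule, were added after their values were seen. Alternatives were library totals, upper quartile and RLE factors, DESeq2 1.42.0, limma voom 3.58.1, other filters, the replicate number as a block, a lung score and a muscle score as covariates, lung-poor (Sftpc under 100 CPM) and lung-containing tumors alone, a threshold of 0.01, and each tumor left out. The muscle score, the lung subsets and the 8 tumors without a block were added after seeing the data.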

Additional observations from a re-analysis of the deposited data

Results flagged for a closer look

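Of 108 groups of values searched for a tumor far from the rest, 1 had one, where chance alone flags about 5% of groups. It was the log2 ratio of Eef2 to Eef2k in ONDOX tumor 2, which at 6.51 was above the other ONDOX tumors (group median 6.14). Its gap to the nearest ONDOX tumor was 0.588 of the group's range.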

How the results depend on the processing

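The 38 factors called higher became 35 with RLE factors, 33 with upper quartile factors, 29 with library totals, 39 with DESeq2, 38 with limma voom, 35 without the low-count filter and 35 with at least 5 CPM in 4 tumors. The count was 21 with the lung score and 21 with the muscle score as a covariate, 24 at an adjusted p below 0.01, and 0 in the lung-poor and 0 in the lung-containing tumors alone, where 0 of all genes and 0 of the other translation genes passed (2289 and 3899 genes at an unadjusted p below 0.05). All genes called numbered 1713 with the lung score (1168 higher) and 2515 with the muscle score (1604 higher). They numbered 1703 at an adjusted p below 0.01 (1187 higher), against 4475 (2437 higher). Leaving out each tumor gave 28 to 41 genes of the set called higher, where 10.9% to 19.1% of all genes were called higher. Calls in either direction then numbered 2862 to 5396 genes. The count of the set was lowest without OFFDOX tumor 3 (28) and without OFFDOX tumor 4 or ONDOX tumor 1 (29 each). That of all genes was lowest without OFFDOX tumor 1 (2862), with 2922 without OFFDOX tumor 4. Genes of the set called lower numbered 0, but 1 (the Argonaute Eif2c4) with DESeq2, with limma voom and with the replicate block. In these fits 19.5%, 12% and 7.96% of all genes were called lower. Of the other translation genes, 1 was called lower with library totals. Higher calls were 54.5% of all calls with TMM, 48.0% with RLE, 37.0% with upper quartile scaling and 28.4% from totals alone; the median log2 fold change over all genes was then shifted by -0.21 with upper quartile scaling and by -0.31 with totals. The 19 ratios gave 5 passing with a pseudocount of 2, 0 with the difference of medians, and 4 to 6 with a tumor left out. The causes of these changes were not tested.

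Replicate numbers 1 to 4 occur in both groups, but same-numbered tumors did not deviate together throughout (correlations -0.16, 0.46, -0.076 and 0.26). Of the 4 OFFDOX tumors, 2 correlated best with their own number. The labels do not say that same-numbered tumors are paired, and so few tumors cannot settle it. With the replicate block on these 8 tumors, 34 genes of the set were higher and 1 lower among 3009 genes called. Of all genes, 12.3% were then called higher and 7.96% lower. This fit lost Eif1, Eif2b1, Eif3d, Eif3g, Eif3l and Eif4h and added Eif4ebp1 (log2 fold change 1.29, adjusted p = 0.0366, edgeR) and Eif2c1 (0.87, adjusted p = 0.0354). The same 8 tumors without the block gave 37 higher among 3576 genes called, Eif2c1 among the 37 (edgeR adjusted p = 0.018). There 13.8% of all genes were called higher.

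Every log2 fold change that turned sign under an alternative belonged to a gene of the set that was not called. Eef1a2 was -0.028 with RLE factors, -0.14 with upper quartile factors, -0.24 with library totals, -0.022 with DESeq2, -0.89 with limma voom, -0.026 with at least 5 CPM, -2.38 with the block, -0.59 in the same 8 tumors, -0.31 with the lung score and -0.76 in lung-poor tumors. Eif4a2 was -0.087 with RLE factors, -0.22 with upper quartile factors, -0.31 with library totals, -0.080 with DESeq2, -0.0080 with limma voom, -0.069 without the filter, -0.093 with at least 5 CPM, -0.085 with the block, -0.046 in the same 8 tumors, -0.039 with the muscle score and -0.34 in lung-containing tumors. Eif1b was -0.12 with upper quartile factors, -0.22 with library totals, -0.37 with the block, -0.27 in the same 8 tumors and -0.090 in lung-containing tumors. Eif2c3 was -0.088 with upper quartile factors, -0.22 with library totals, -0.42 with the lung score and -0.90 in lung-poor tumors. Library totals gave -0.027 for Eif2b4, -0.069 for Eif2d and -0.071 for Eif4a3. Eif2b2 was 0.10 with the block and 0.10 in the same 8 tumors. Eif4e3 was -0.23 with the block, -0.0024 in the same 8 tumors and -0.15 in lung-poor tumors. The muscle score gave -0.29 for Eif4ebp1. In lung-poor tumors the values were -0.055 for Eif2b4, -0.45 for Eif2c2, -0.43 for Eif4a3, -0.15 for Eif4enif1, -0.073 for Eif4g3, -0.11 for Eif5a2 and -0.058 for Eif6. Leaving out a tumor gave -0.30 to 0.55 for Eef1a2, -0.024 to 0.28 for Eif1b, -0.13 to 0.058 for Eif2b2, -0.18 to 0.71 for Eif2c3 and -0.10 to 0.12 for Eif4a2. The log2 ratio of Eif2s1 to Eif2s2 was -0.0038 with medians and -0.15 to 0.16 with a tumor left out, and that of Eif4e to Eif4ebp2 -0.071 with medians and -0.054 to 0.22. The causes were not tested.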

Other observations

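Within the ONDOX group, a few genes of the set split the tumors the same way, a pattern noticed in these values and not tested. Eif4ebp1 had 66.7, 52.1 and 52.0 CPM in ONDOX tumors 1, 3 and 4, and 7.72 to 21.7 CPM in the other 4 ONDOX tumors. Tumors 1, 3 and 4 were also the lowest ONDOX tumors for Eef1a2 (4.76, 59.0 and 1.76 CPM), Eif2c4 (0.58, 3.69 and 1.32 CPM) and Eif4e3 (39.8, 61.7 and 48.4 CPM). The labels do not divide the ONDOX tumors.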
